A study of Mus musculus with 12 samples.

Results

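The genes described here are the channels, pumps and cotransporters through which the lung moves salt and water across its alveolar and airway lining. They are the 3 subunits of the epithelial sodium channel ENaC (Scnn1a, Scnn1b and Scnn1g), the water channels Aqp1, Aqp4 and Aqp5, the beta-1 subunit of the sodium-potassium ATPase (Atp1b1), the chloride channel Cftr and the sodium-potassium-chloride cotransporter Slc12a2. They were chosen by name with earlier results of these data known, 9 of the 22180 genes measured. Each was read through its only probe that the array annotation pairs with 1 symbol. RNA came from whole lung of 12 female mice aged 10 weeks, hybridised to Affymetrix arrays with 1 array per mouse. The 4 groups of 3 mice were Zmpste24-/- ventilated, Zmpste24-/- baseline, wild type ventilated and wild type baseline. Zmpste24 encodes the metalloprotease that matures lamin A, and mice without it are a model of accelerated ageing. Ventilation ran for 2.5 h at an inspiratory pressure of 15 cmH2O with no end-expiratory pressure (0 cmH2O), at 100 breaths/min, with an inspired oxygen fraction of 0.21 and equal times of inspiration and expiration. The baseline mice were intact, so ventilation and the handling that goes with it cannot be told apart.

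Epithelial cells pump fluid out of the air spaces. Sodium enters the cell through ENaC on the air side, leaves it through the sodium-potassium ATPase on the blood side, and water follows, while Cftr lets chloride cross the air side and Slc12a2 loads chloride into the cell from the blood side. Aqp5 is the water channel of alveolar type 1 cells, Aqp1 is found mostly in capillary endothelium and Aqp4 in airway epithelium.

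Values are the deposited log2 expression values, and levels are compared only within a gene. Array medians lay between 5.35 and 5.42. The targeted gene fitted the labels: Zmpste24 read between 5.01 and 5.91 on the 6 Zmpste24-/- arrays, against 8.50 to 9.28 on the 6 wild type arrays. All 10 alveolar type 1, 10 alveolar type 2, 8 ciliated and 12 endothelial markers lay above the array median on every array. So did 6 of 8 club, 4 of 5 mesothelial, all 8 cardiac muscle and 3 of 8 liver genes. Lung cell RNA was thus present, but this check does not tell lung from lung with other tissue. A pair of arrays stood apart on transcripts of other tissues. Wild type baseline array 2 had a mean of 7.97 over 8 liver transcripts, against 5.03 to 6.31 on the other 11 arrays, and wild type ventilated array 1 had a mean of 10.03 over 8 cardiac muscle genes, against 6.75 to 9.07. Where a call changed without one of these arrays, the adjusted p without it is given beside the result. Liver transcript means were 5.96 to 7.97 in baseline and 5.09 to 6.13 in ventilated wild type lungs. Zmpste24-/- lungs gave 5.10 to 5.42 at baseline and 5.03 to 5.18 with ventilation. At baseline 4 of 8 liver transcripts passed as lower in Zmpste24-/- lungs, against 4.11% of all genes. This difference was thus not that of array 2 alone, and its part in the baseline genotype results was not tested. Cardiac muscle genes were lower in Zmpste24-/- lungs too, with median differences of -0.67 at baseline and -1.05 under ventilation. Of these 8 genes 0 passed as lower at baseline and 1 under ventilation, against 4.11% and 6.08% of all genes. The part of cardiac muscle content in the genotype results was not tested. In whole lung, fewer cells of a type and less RNA per cell cannot be told apart.

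Under ventilation, Zmpste24-/- lungs carried more RNA for all 3 ENaC subunits, for Atp1b1 and for Cftr than wild type lungs. At baseline Scnn1a, Scnn1b and Atp1b1 passed as higher. Scnn1g missed the threshold there with a difference of 0.33, against 0.32 for Scnn1b. Its interaction did not pass (limma adjusted p = 0.83), so a change of its genotype difference with ventilation was not shown. Ventilated lungs carried more Atp1b1 RNA than baseline lungs in both genotypes and, in Zmpste24-/- lungs, more Cftr and Slc12a2 RNA. In wild type lungs Cftr and Slc12a2 were higher by 0.33 and 0.23 with ventilation without passing. Their interactions did not pass either (limma adjusted p = 0.215 and 0.78). Aqp1, Aqp4 and Aqp5 passed in none of the 5 comparisons with limma. A difference counted as passed at a Benjamini-Hochberg adjusted p under 0.05 over all 22180 genes in a limma model of the 12 arrays.

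Of the 9 genes, 5 rose and 0 fell in Zmpste24-/- against wild type lungs under ventilation, where 4.72% of all genes passed as higher and 6.08% as lower. At baseline 3 rose and 0 fell, against 2.2% and 4.11% of all genes. With ventilation 3 rose and 0 fell in Zmpste24-/- lungs, against 8.89% and 7.52% of all genes, and 1 rose and 0 fell in wild type lungs, against 3.67% and 3.53%. Each group enters 2 of these 4 comparisons, so they share arrays. Because the 9 genes were chosen with earlier results of these data known, the shares of all genes are a scale and not a test. All 9 genes had a positive Zmpste24-/- minus wild type difference under ventilation, with a median of 0.36 against 0.01 over all genes, and 8 of 9 at baseline, with a median of 0.29 against -0.01. The median ventilation difference was 0.02 in Zmpste24-/- and -0.02 in wild type lungs, against -0.01 over all genes in each. Without wild type baseline array 2 the baseline count was 2, and without wild type ventilated array 1 the counts were 5 under ventilation and 2 with ventilation in wild type lungs. The count under ventilation was 3 without Zmpste24-/- ventilated array 1 or array 2, and the count with ventilation in Zmpste24-/- lungs was 1 without Zmpste24-/- baseline array 3. The interaction, the ventilation difference in Zmpste24-/- minus that in wild type lungs, passed for 0 of the 9 genes with limma, against 0.316% of all genes, and 1 of them, Cftr, had an unadjusted p under 0.05.

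**Figure D1:**
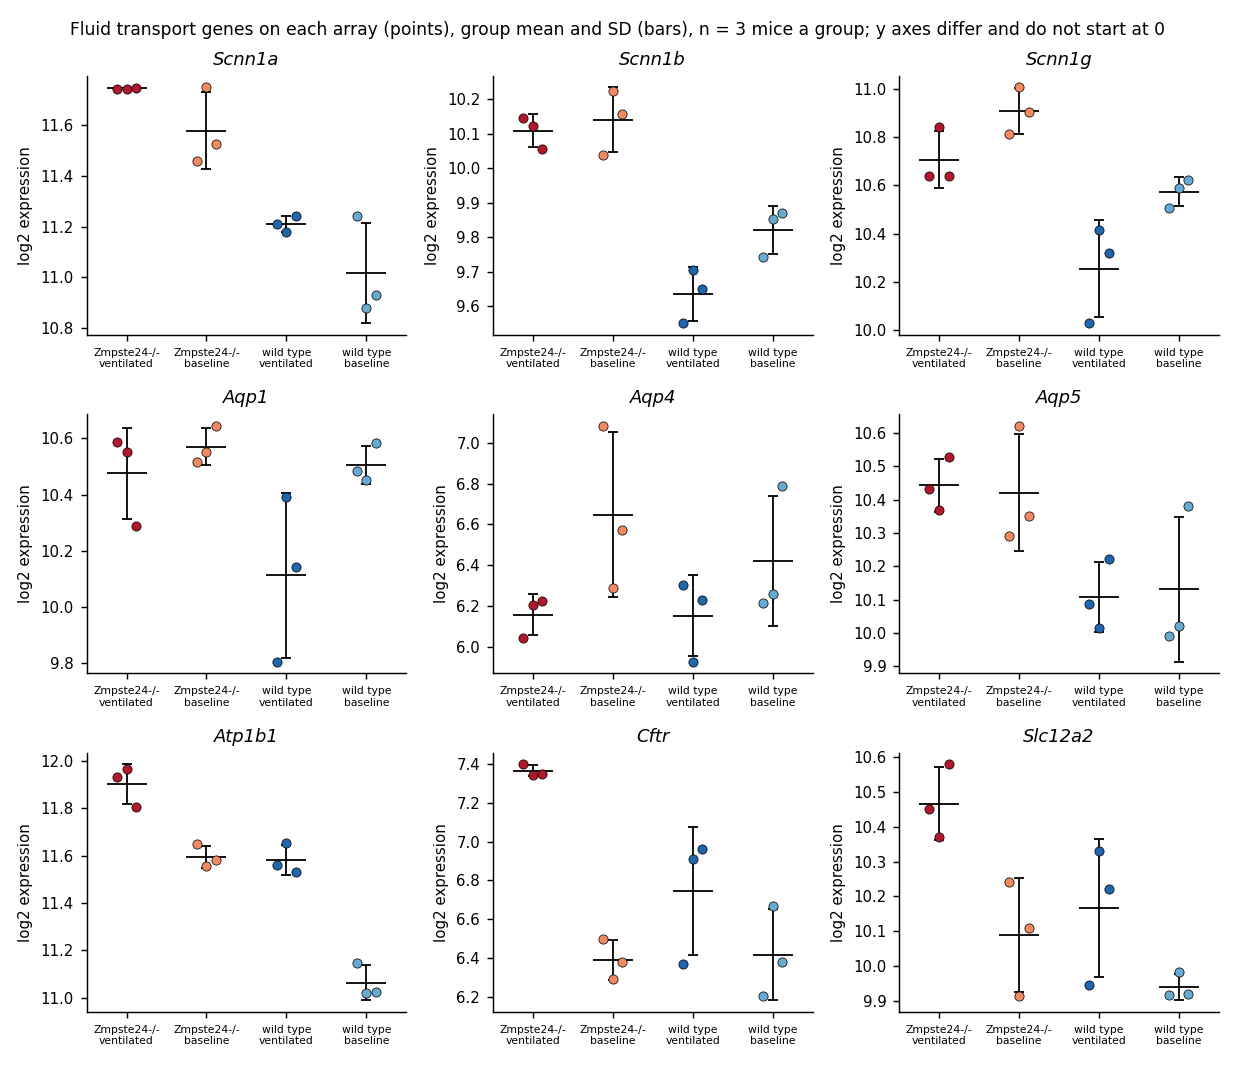
Log2 expression of the 9 genes (vertical axes, which differ between panels) in Zmpste24-/- ventilated, Zmpste24-/- baseline, wild type ventilated and wild type baseline lungs; points are mice and bars the mean and SD of 3. Scnn1a and Scnn1b separate by genotype, Atp1b1 forms 3 steps, and Cftr stands highest in all 3 Zmpste24-/- ventilated lungs.

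The promoters of 6 of these genes were matched by symbol in RefSeq (GRCm38.p6), each as the window of 250 bases before to 50 after the gene's start. The 4 shown belong to genes that passed in at least 1 comparison: Scnn1g at chr7:121734229-121734528 (+ strand), Scnn1b at chr7:121864788-121865087 (+ strand), Atp1b1 at chr1:164458306-164458605 (- strand) and Cftr at chr6:18170437-18170736 (+ strand). Scnn1g and Scnn1b lie next to each other on chromosome 7, with 0 protein-coding genes between them, and are shown for comparison because their levels moved together. Each runs 5′ to 3′ along its gene, and capitals mark the GC box GGGCGG, the CCAAT box CCAAT and the NKX2 core CAAGTG on either strand.
Scnn1g: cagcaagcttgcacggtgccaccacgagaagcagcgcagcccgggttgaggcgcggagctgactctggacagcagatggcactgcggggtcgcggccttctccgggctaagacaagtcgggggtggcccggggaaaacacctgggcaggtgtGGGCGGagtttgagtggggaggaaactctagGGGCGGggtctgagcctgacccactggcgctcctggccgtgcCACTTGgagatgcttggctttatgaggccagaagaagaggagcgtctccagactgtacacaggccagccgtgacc
Scnn1b: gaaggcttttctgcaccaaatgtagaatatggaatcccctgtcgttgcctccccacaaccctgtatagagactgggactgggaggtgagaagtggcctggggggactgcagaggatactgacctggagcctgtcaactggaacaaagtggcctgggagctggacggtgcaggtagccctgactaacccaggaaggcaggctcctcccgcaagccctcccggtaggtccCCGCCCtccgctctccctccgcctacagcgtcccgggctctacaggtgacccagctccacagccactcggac
Atp1b1: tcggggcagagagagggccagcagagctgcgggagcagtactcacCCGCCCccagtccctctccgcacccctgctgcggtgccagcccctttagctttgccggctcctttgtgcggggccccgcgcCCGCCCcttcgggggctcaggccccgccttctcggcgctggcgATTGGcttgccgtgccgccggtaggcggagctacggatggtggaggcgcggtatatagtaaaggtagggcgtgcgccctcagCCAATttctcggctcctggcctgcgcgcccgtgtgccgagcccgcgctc
Cftr: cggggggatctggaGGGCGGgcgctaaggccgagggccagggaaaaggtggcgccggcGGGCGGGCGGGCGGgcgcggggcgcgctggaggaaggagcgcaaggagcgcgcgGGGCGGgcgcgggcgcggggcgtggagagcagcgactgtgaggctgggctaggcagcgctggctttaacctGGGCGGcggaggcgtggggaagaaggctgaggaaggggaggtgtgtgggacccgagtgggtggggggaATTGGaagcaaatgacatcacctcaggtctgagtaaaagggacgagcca

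The GC box, bound by Sp-family factors, occurred 2 times in the Scnn1g window, 1 time in Scnn1b, 2 times in Atp1b1 and 6 times in Cftr, where 3 of the matches overlap in 1 run. It also occurred 1 time in the Aqp1 and 3 times in the Aqp5 window, and 35.7% of all 32851 windows of this length hold it. A CCAAT box stood 2 times in Atp1b1, at -81 and 2, and 1 time in Cftr, at 2, counted from the start, against 37.4% of windows. The NKX2 core stood in the Scnn1g window at -25, against 13.6% of windows. The letters TATAAA (13.6% of windows), AGAACA, a glucocorticoid receptor half-site (19%), and TGANTCA, the AP-1 site (7.81%), were not in any of the 6 windows on either strand. No overlaps between different motifs were found, and a match is a description of the letters.

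The alpha subunit of ENaC, without which the channel does not reach the surface, was higher in Zmpste24-/- lungs in both conditions. Scnn1a read 11.75, 11.75 and 11.75 in ventilated Zmpste24-/- lungs against 11.21, 11.18 and 11.24 in ventilated wild type lungs. It read 11.46, 11.75 and 11.53 in baseline Zmpste24-/- lungs against 11.24, 10.88 and 10.93 in baseline wild type lungs. Every Zmpste24-/- array lay above every wild type array. The difference was 0.54 ± 0.10 (SE) under ventilation, 1.45-fold (limma adjusted p = 0.00491), and 0.56 ± 0.10 at baseline, 1.48-fold (adjusted p = 0.00637). Both held with each of the 12 arrays left out in turn. The ventilation difference was 0.17 ± 0.10 in Zmpste24-/- lungs and 0.19 ± 0.10 in wild type lungs (adjusted p = 0.339 and 0.318), and arrays overlapped in each genotype.

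The beta subunit followed the genotype too. Scnn1b read 10.15, 10.12 and 10.06 in ventilated Zmpste24-/- lungs against 9.55, 9.71 and 9.65 in ventilated wild type lungs. It read 10.04, 10.22 and 10.16 in baseline Zmpste24-/- lungs against 9.74, 9.85 and 9.87 in baseline wild type lungs. The 6 Zmpste24-/- arrays were again all above the 6 wild type arrays. Under ventilation the difference was 0.47 ± 0.08, 1.39-fold (limma adjusted p = 0.00244), and it held with each array left out. At baseline it was 0.32 ± 0.08, 1.25-fold (adjusted p = 0.0315), and this call was lost without wild type baseline array 1 (adjusted p = 0.101) or 2 (0.0644) and without Zmpste24-/- baseline array 2 (0.109) or 3 (0.104). It was also lost after quantile normalization (0.0627) and with the 2 baseline groups fitted alone (0.0905). The ventilation difference was -0.03 ± 0.08 in Zmpste24-/- and -0.19 ± 0.08 in wild type lungs (adjusted p = 0.867 and 0.207). In wild type lungs the ventilated arrays lay below the baseline arrays without overlap.

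The gamma subunit, cut by channel-activating proteases as the beta subunit is not, passed under ventilation. Scnn1g read 10.64, 10.84 and 10.64 in ventilated Zmpste24-/- lungs against 10.03, 10.41 and 10.32 in ventilated wild type lungs. The groups did not overlap, and the difference was 0.45 ± 0.10, 1.37-fold (limma adjusted p = 0.0138). Without Zmpste24-/- ventilated array 2 the adjusted p was 0.0625, and leaving out wild type ventilated array 1, the array high in cardiac genes and lowest in Scnn1g, gave a difference of 0.34. At baseline Scnn1g read 10.81, 11.01 and 10.90 in Zmpste24-/- lungs against 10.51, 10.59 and 10.62 in wild type lungs. These groups did not overlap either, but 0.33 ± 0.10 missed the threshold (adjusted p = 0.0775). It passed when wild type ventilated array 1 was left out (0.0376) and with genes under the median expression left out (0.0499). The ventilation difference was -0.20 ± 0.10 in Zmpste24-/- lungs (adjusted p = 0.243) and -0.32 ± 0.10 in wild type lungs (0.0869), with no overlap of arrays in wild type lungs.

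Among 17262 named genes, the gene whose levels were most like Scnn1g over the 12 arrays was its neighbour Scnn1b (Pearson r = 0.922). The r of their deviations from the group means was 0.783. For Scnn1b the closest were the ribosomal protein pseudogenes Rpl31-ps20 (r = 0.981) and Rpl15-ps6 (r = 0.972), whose probes may read near-identical copies, and S100a13 (r = 0.960). Scnn1a was most like Selenbp1 (r = 0.955), Snrnp40 (r = 0.946) and Drap1 (r = 0.939). These r values describe 12 arrays that share the 4 groups.

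**Figure D2:**
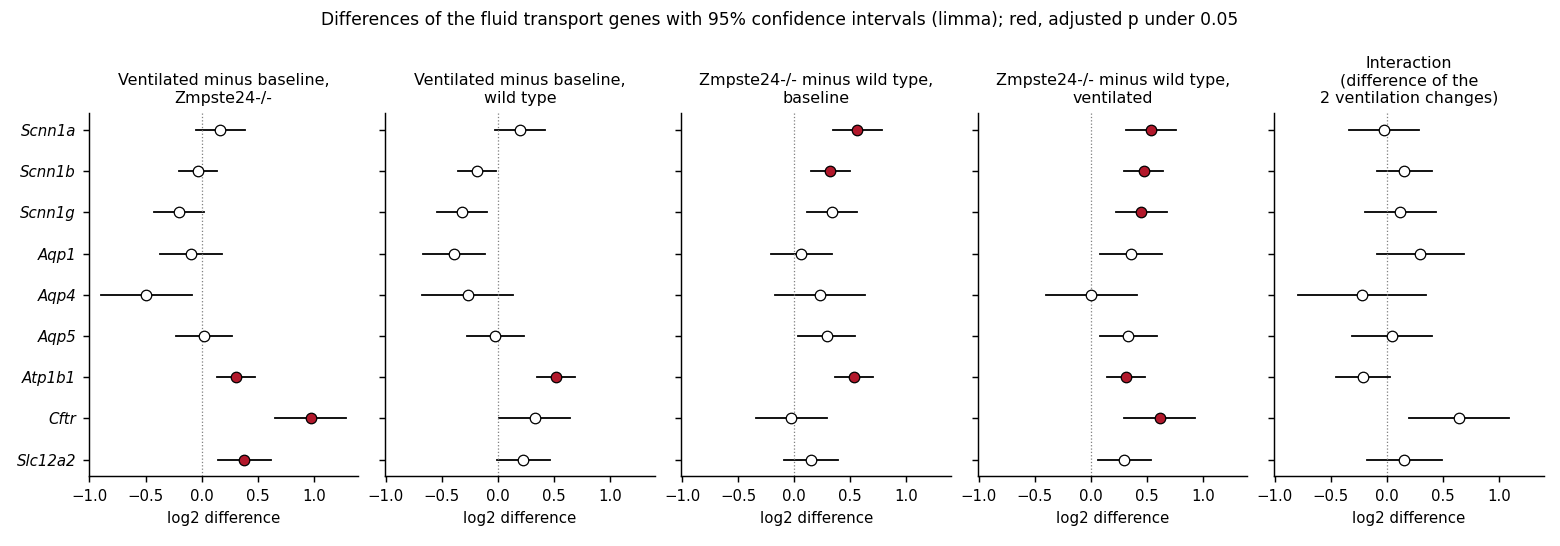
Log2 differences of the 9 genes (horizontal axes) with 95% confidence intervals from limma, for ventilation within a genotype, for Zmpste24-/- minus wild type within a condition, and for the interaction; red points passed an adjusted p under 0.05. Red points lie to the right of 0 in the panels that hold them, 5 of them in Zmpste24-/- minus wild type under ventilation, and the interaction panel holds 0.

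Sodium leaves the cell through the sodium-potassium ATPase, whose beta subunit carries the pump to the membrane. Atp1b1 read 11.93, 11.97 and 11.81 in ventilated and 11.65, 11.56 and 11.58 in baseline Zmpste24-/- lungs. It read 11.56, 11.65 and 11.53 in ventilated and 11.15, 11.02 and 11.02 in baseline wild type lungs. Levels formed 3 steps: ventilated Zmpste24-/- lungs highest, baseline Zmpste24-/- and ventilated wild type lungs overlapping in the middle, and baseline wild type lungs lowest. The difference between the 2 middle group means was 0.01.

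With ventilation Atp1b1 rose by 0.31 ± 0.08 in Zmpste24-/- lungs, 1.24-fold (limma adjusted p = 0.0156), and by 0.52 ± 0.08 in wild type lungs, 1.43-fold (adjusted p = 0.00144). The interaction was -0.21 ± 0.11 (adjusted p = 0.497; 95% confidence interval -0.45 to 0.03), so the 2 responses were not shown to differ. Zmpste24-/- lungs were higher than wild type lungs by 0.53 ± 0.08 at baseline (adjusted p = 0.00206) and by 0.32 ± 0.08 under ventilation (adjusted p = 0.019). The ventilation call in wild type lungs and the baseline genotype call held with each array left out. The ventilation call in Zmpste24-/- lungs was lost without Zmpste24-/- baseline array 2 (adjusted p = 0.0566) or 3 (0.0536) or ventilated array 2 (0.0699). The genotype call under ventilation was lost without Zmpste24-/- ventilated array 1 (0.0632) or 2 (0.0768) or wild type ventilated array 3 (0.0736), and after quantile normalization (0.0604). Klf9 (r = 0.973), Bnip3 (r = 0.965) and Adipor2 (r = 0.962) were the genes most like Atp1b1 over the 12 arrays.

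Of 12 other listed subunits and FXYD regulators of the pump 8 were measured. In limma 0 rose in any of the comparisons, with 1 higher at an unadjusted p under 0.05 with ventilation in Zmpste24-/- lungs and 1 by genotype at baseline, and 1 fell in each of 3. Among all genes 7.52% fell with ventilation in Zmpste24-/- lungs, 4.11% by genotype at baseline and 6.08% by genotype under ventilation. Fxyd1, a regulator of the pump best known from heart and muscle, fell by 0.55 with ventilation in Zmpste24-/- lungs (limma adjusted p = 0.0278). Atp1b3, another beta subunit, fell by 0.37 in Zmpste24-/- against wild type lungs at baseline (adjusted p = 0.0398), and Atp1b2 fell by 0.46 under ventilation (adjusted p = 0.0214). These calls were lost with 5, 8 and 4 of the 12 arrays left out in turn, at adjusted p of up to 0.137, 0.138 and 0.0869. Among these, Atp1b3 was lost without wild type baseline array 2 (0.138) and Atp1b2 without wild type ventilated array 1 (0.0664). Atp1b3 was also lost with array medians subtracted (0.0603) and with the compared groups alone (0.0584), and Atp1b2 after quantile normalization (0.0501).

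Cftr, the chloride channel mutated in cystic fibrosis, had the largest ventilation difference of the 9 genes in Zmpste24-/- lungs. It read 7.40, 7.35 and 7.35 in ventilated against 6.50, 6.29 and 6.38 in baseline Zmpste24-/- lungs. Wild type lungs gave 6.37, 6.91 and 6.96 with ventilation against 6.20, 6.67 and 6.38 at baseline. All 3 ventilated Zmpste24-/- arrays lay above the other 9 arrays, while ventilated and baseline wild type arrays overlapped. The ventilation difference was 0.97 ± 0.15 in Zmpste24-/- lungs, 1.96-fold (limma adjusted p = 0.000503), and held with each array left out (adjusted p at most 0.00315). In wild type lungs it was 0.33 ± 0.15, 1.26-fold (adjusted p = 0.223), and without wild type ventilated array 1 it was 0.52 and passed (0.0264).

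The interaction for Cftr was 0.64 ± 0.21, with an unadjusted p of 0.00797 in limma and an adjusted p of 0.215, so a difference between the 2 responses was not shown. Its 95% confidence interval was 0.20 to 1.09, and without wild type ventilated array 1 the interaction was 0.46. Zmpste24-/- lungs exceeded wild type lungs by 0.62 ± 0.15 under ventilation, 1.53-fold (adjusted p = 0.0162), and by -0.03 ± 0.15 at baseline (0.945). The call under ventilation was lost without Zmpste24-/- ventilated array 1 (0.0522), and without wild type ventilated array 1 the difference was 0.43 and passed. Smim3 (r = 0.960), Hspa4 (r = 0.958), a heat shock protein of the Hsp110 family, and Arf4 (r = 0.958), a small GTPase of the Golgi, were most like Cftr. Of 4 markers of ionocytes, rare airway cells rich in Cftr, 1, Atp6v1c2, fell with ventilation in each genotype, by 0.43 and 0.40, and 0 rose. The falls stand against 7.52% and 3.53% of all genes. Ascl3, another of the 4 ionocyte markers, lay below the array median on all 12 arrays. The part of these cells in the Cftr result was not tested.

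Slc12a2, which brings chloride in from the blood side, passed in 1 comparison. It read 10.45, 10.37 and 10.58 in ventilated against 10.24, 9.91 and 10.11 in baseline Zmpste24-/- lungs. Wild type lungs gave 9.95, 10.33 and 10.22 with ventilation against 9.92, 9.98 and 9.92 at baseline. The Zmpste24-/- groups did not overlap and the wild type groups did. The ventilation difference was 0.38 ± 0.11 in Zmpste24-/- lungs, 1.30-fold (limma adjusted p = 0.0302), and 0.23 ± 0.11 in wild type lungs (0.27). The call was lost without Zmpste24-/- baseline array 2 (adjusted p = 0.13) or 3 (0.0712) and without ventilated array 1 (0.0644) or 3 (0.127). Under ventilation Zmpste24-/- lungs exceeded wild type lungs by 0.30 ± 0.11 without overlap (adjusted p = 0.102), or by 0.19 without wild type ventilated array 1 (0.3), and at baseline by 0.15 ± 0.11 (0.494). Cct4 (r = 0.960) and Tcp1 (r = 0.952), both subunits of the chaperonin TRiC, and Ccdc186 (r = 0.934) were most like it.

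The 3 water channels are given next. Aqp5, the type 1 cell water channel, read 10.43, 10.37 and 10.53 in ventilated Zmpste24-/- lungs against 10.09, 10.01 and 10.22 in ventilated wild type lungs. At baseline it read 10.29, 10.62 and 10.35 in Zmpste24-/- lungs against 9.99, 10.02 and 10.38 in wild type lungs. Under ventilation all Zmpste24-/- arrays lay above the wild type arrays, and at baseline they overlapped through wild type array 3. The differences were 0.34 ± 0.12 (limma adjusted p = 0.0881) and 0.29 ± 0.12 (0.174). Without wild type baseline array 3 both passed, at 0.34 (adjusted p = 0.0452) and 0.41 (0.045). Without Zmpste24-/- baseline array 2 the baseline difference was 0.19 (0.453). The difference under ventilation also passed with array medians subtracted (0.0433) and with the 2 ventilated groups fitted alone (0.0439). Ventilation differences of Aqp5 were 0.02 ± 0.12 in Zmpste24-/- lungs, with a 95% confidence interval of -0.23 to 0.28, and -0.02 ± 0.12 in wild type lungs, with an interval of -0.28 to 0.23. The genes most like Aqp5 were Flvcr2 (r = 0.934), Wnt1 (r = 0.925) and Rps25 (r = 0.902).

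Alveolar type 1 markers were measured beside Aqp5 and Scnn1a. Of 10 such markers 3 rose in Zmpste24-/- against wild type lungs under ventilation and 0 fell: Ager by 0.31, Hopx by 0.38 and Gprc5a by 0.46. In that comparison 4.72% of all genes rose and 6.08% fell. At baseline 0 of 10 passed in limma, with 3 higher at an unadjusted p under 0.05. The mean of the list on single arrays was 10.64 to 10.67 in ventilated and 10.65 to 10.84 in baseline Zmpste24-/- lungs, against 10.32 to 10.59 in ventilated and 10.62 to 10.67 in baseline wild type lungs, and its lowest value was that of wild type ventilated array 1. Of 10 alveolar type 2 markers 0 rose and 2, Etv5 and Slc34a2, fell under ventilation by genotype. Array means of that list were 11.07 to 11.31 and 11.36 to 11.40 in ventilated and baseline Zmpste24-/- lungs, against 11.21 to 11.41 and 11.17 to 11.39 in ventilated and baseline wild type lungs. The part of these cell types in the higher ENaC, Atp1b1 and Cftr levels was not tested.

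Markers of blood cells also moved with genotype. For scale, 4.72% of all genes rose and 6.08% fell by genotype under ventilation, and 2.2% rose and 4.11% fell at baseline. Of 9 neutrophil markers 5 rose and 1 fell in Zmpste24-/- against wild type lungs under ventilation, with a median difference of 1.20, and 1 rose at baseline (4 to 5 and 1 to 3 with 1 array left out, and 0 to 1 for the fall). In this list Ly6g and Camp lay below the array median on all 12 arrays, and Ltf, the marker that fell, on 1 array. Array means of that list were 7.72 to 7.83 in ventilated and 6.38 to 7.01 in baseline Zmpste24-/- lungs, against 6.87 to 7.56 in ventilated and 6.19 to 6.64 in baseline wild type lungs. Of 7 measured B and T cell markers all 7 fell under ventilation by genotype, with a median of -0.86, and 5 fell at baseline (5 to 7 and 2 to 7 with 1 array left out, the 2 without wild type baseline array 1 or Zmpste24-/- baseline array 3). Their array means were 6.76 to 7.003 in ventilated and 7.06 to 7.47 in baseline Zmpste24-/- lungs, against 7.58 to 7.99 in ventilated and 7.81 to 8.23 in baseline wild type lungs. The part of these cells in the genotype differences was not tested.

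Aqp1, the endothelial water channel, read 10.59, 10.55 and 10.29 in ventilated Zmpste24-/- lungs against 10.52, 10.55 and 10.64 in baseline ones. It read 9.81, 10.39 and 10.14 in ventilated wild type lungs against 10.48, 10.45 and 10.58 in baseline ones. Ventilated wild type arrays lay below the baseline arrays without overlap, with array 1 the lowest. The difference was -0.39 ± 0.13 in wild type lungs (limma adjusted p = 0.0854) and -0.10 ± 0.13 in Zmpste24-/- lungs (0.727). Without wild type ventilated array 2 the wild type difference was -0.53 and passed (0.0204), and without array 1 it was -0.24 (0.264). Under ventilation Zmpste24-/- lungs exceeded wild type lungs by 0.36 ± 0.13 (0.091), which passed at 0.50 without wild type ventilated array 2 (0.0276) and was 0.21 without array 1 (0.277). At baseline the genotypes differed by 0.06 ± 0.13 (0.839).

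Of 12 endothelial markers 9 fell with ventilation in Zmpste24-/- lungs (5 to 9 with 1 array left out) and 10 in wild type lungs (6 to 10), against 7.52% and 3.53% of all genes. Array means of the list were 9.66 to 9.81 in ventilated against 10.04 to 10.16 in baseline Zmpste24-/- lungs, and 9.87 to 9.97 in ventilated against 10.36 to 10.46 in baseline wild type lungs. By genotype 5 of 12 endothelial markers fell at baseline, against 4.11% of all genes. Under ventilation 4 of these markers fell and 1 rose, against 6.08% and 4.72%. Their part in the Aqp1 values was not tested. The genes most like Aqp1 were Tmem159 (r = 0.903), Zfp563 (r = 0.901) and Gstt3 (r = 0.899).

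Aqp4, the airway water channel, had the largest standard errors of the 3. It read 6.04, 6.21 and 6.22 in ventilated against 7.08, 6.29 and 6.57 in baseline Zmpste24-/- lungs. Wild type lungs gave 6.30, 5.93 and 6.23 with ventilation against 6.21, 6.26 and 6.79 at baseline. Baseline Zmpste24-/- arrays lay above the ventilated arrays without overlap, and the wild type groups overlapped. The ventilation difference was -0.49 ± 0.19 in Zmpste24-/- lungs (limma adjusted p = 0.0982) and -0.27 ± 0.19 in wild type lungs (0.475). In Zmpste24-/- lungs it was -0.67 and passed without baseline array 2 (0.0313), and was -0.27 without baseline array 1 (0.369). By genotype Aqp4 differed by 0.00 ± 0.19 under ventilation and 0.23 ± 0.19 at baseline (0.992 and 0.549).

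The genes most like Aqp4 over the 12 arrays were Dydc2 (r = 0.954), Foxj1 (r = 0.953), the master transcription factor of motile cilia, and Armc2 (r = 0.929), which is needed for the sperm flagellum. Foxj1 read 8.24, 8.32 and 8.35 in ventilated against 8.99, 8.50 and 8.63 in baseline Zmpste24-/- lungs, and 8.42, 7.86 and 8.24 in ventilated against 8.21, 8.40 and 8.79 in baseline wild type lungs. The likeness also held within groups, since the r of deviations from group means was 0.964 for Dydc2, 0.937 for Foxj1 and 0.911 for Armc2. Over the 8 ciliated cell markers r with Aqp4 ranged between 0.514 and 0.953, and between 0.429 and 0.937 for deviations. Of these 8 markers 6 fell with ventilation in Zmpste24-/- lungs (3 to 6 with 1 array left out), and 0 in wild type lungs in limma (1 at an unadjusted p under 0.05). The shares of all genes that fell were 7.52% and 3.53%. Array means of the list were 7.76 to 7.85 in ventilated against 8.21 to 8.67 in baseline Zmpste24-/- lungs, and 7.91 to 8.14 in ventilated against 7.88 to 8.33 in baseline wild type lungs. The points share 12 arrays of whole lung pieces, and no p is given. Array means of 8 club cell markers, also of the airway, were 9.69 to 10.42 in ventilated and 9.11 to 11.21 in baseline Zmpste24-/- lungs. Wild type lungs gave 10.16 to 11.05 with ventilation and 9.01 to 10.67 at baseline. The value of 11.21 was that of baseline Zmpste24-/- array 1, also the highest array in Aqp4. The part of airway content in the Aqp4 values was not tested.

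**Figure D3:**
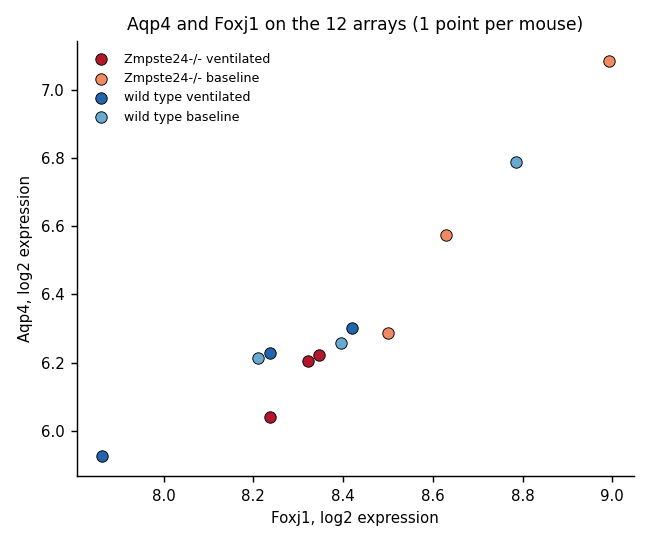
Log2 expression of Aqp4 (vertical axis) against Foxj1 (horizontal axis), 1 point per mouse, coloured by group. The points rise together (Pearson r = 0.953 over 12 arrays), with baseline Zmpste24-/- array 1 at the top right (7.08 and 8.99) and ventilated wild type array 2 at the bottom left (5.93 and 7.86).

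**Figure D4:**
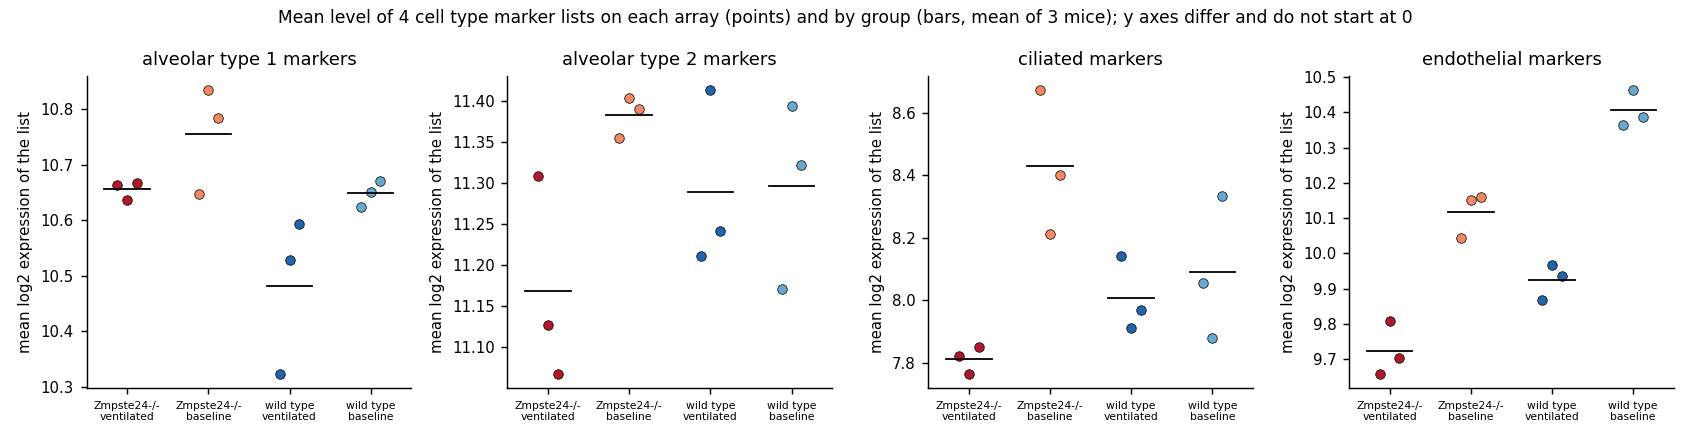
Mean log2 expression (vertical axes, which differ) of the alveolar type 1, alveolar type 2, ciliated and endothelial marker lists on each array, with bars at the mean of 3 mice, for Zmpste24-/- ventilated, Zmpste24-/- baseline, wild type ventilated and wild type baseline lungs. Endothelial means are lower in both ventilated groups (9.66 to 9.81 and 9.87 to 9.97) than in both baseline groups.

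The genes that act on these channels were taken from 6 lists, with 64 of 75 genes measured. Of these 64 genes 31, or 48.4%, passed in at least 1 of the 5 comparisons, against 25.7% of all 22180 genes, for 47 calls in all, and 18 of the 47 held with each of the 12 arrays left out in turn. Genes named beyond 6 per list, taken by adjusted p, were chosen after their values were seen. The lists too were chosen with earlier results of these data known, so 48.4% against 25.7% is no test of them.

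Of 18 regulators and activating proteases of ENaC, 5 rose and 3 fell with ventilation in Zmpste24-/- lungs, against 8.89% and 7.52% of all genes. The median difference of the list was 0.03. Sgk1, the kinase that keeps ENaC at the surface, read 8.62, 8.82 and 8.68 in ventilated against 7.94, 8.12 and 7.81 in baseline Zmpste24-/- lungs. Wild type lungs gave 8.18, 8.31 and 8.40 with ventilation against 8.17, 8.44 and 8.32 at baseline. The Zmpste24-/- groups were fully apart and the wild type groups overlapped, with differences of 0.75 ± 0.10 (limma adjusted p = 0.000271) and -0.01 ± 0.10 (0.965). Baseline Sgk1 was lower in Zmpste24-/- than in wild type lungs, at means of 7.96 and 8.31 without overlap of arrays, and this difference did not pass. Wnk4, a kinase that controls sodium and chloride transport, rose by 0.88 ± 0.10 in Zmpste24-/- lungs (8.88e-05), reading 6.65, 6.75 and 6.90 in ventilated against 5.80, 6.01 and 5.86 in baseline lungs. Nedd4l, the ubiquitin ligase that removes ENaC from the surface, rose by 0.49 ± 0.10 (0.00411), and Oxsr1, a kinase downstream of WNK kinases, rose by 0.41 ± 0.09 (0.00528). These 4 calls held with each array left out. In wild type lungs Wnk4 averaged 6.39 with ventilation against 6.08 at baseline, and Nedd4l 10.01 against 9.73, both without overlap of arrays. Oxsr1 averaged 7.71 against 7.68 there, with overlap. None of these wild type differences passed.

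The fifth to rise was St14 (matriptase, a channel-activating protease, 0.44 ± 0.11, limma adjusted p = 0.0124), and the 3 that fell were Prss8 (prostasin, also a channel-activating protease, by 0.38), Usp2, a deubiquitinase (by 0.72), and Nedd4 (by 0.29). In wild type lungs 1 rose and 1 fell with ventilation, against 3.67% and 3.53% of all genes. They were St14 by 0.46 ± 0.11 (0.0196) and Prss8 by 0.43 (0.0132), the same pair in the same directions. At an unadjusted p under 0.05 in limma, 4 of the list were higher and 1 lower in wild type lungs. Without 1 array the calls for Prss8 were lost in Zmpste24-/- lungs 2 times in 12 (adjusted p up to 0.0671) and in wild type lungs 1 time, without ventilated array 3 (0.0691). For St14 they were lost 3 times in Zmpste24-/- lungs (up to 0.0626) and 4 times in wild type lungs (up to 0.0888), for Usp2 1 time, without baseline array 1 (0.0559), and for Nedd4 4 times (up to 0.11). Without Zmpste24-/- baseline array 1 the number that fell in Zmpste24-/- lungs at a limma adjusted p under 0.05 was 0, against 3 with all arrays. The wild type St14 call was lost without wild type baseline array 2 (0.0643) and without wild type ventilated array 1 (0.0526).

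Between genotypes 4 of 18 regulators rose in Zmpste24-/- lungs and 0 fell, at baseline and under ventilation alike. At an unadjusted p under 0.05 in limma, 5 were higher and 4 lower at baseline. Under ventilation 6 were higher and 1 lower. Over all genes 2.2% rose and 4.11% fell at baseline, and 4.72% and 6.08% under ventilation. Tsc22d3, the glucocorticoid-induced protein GILZ, which favours ENaC at the surface, read 8.03, 7.86 and 7.73 in ventilated Zmpste24-/- lungs against 7.09, 7.40 and 7.44 in ventilated wild type lungs. At baseline it averaged 7.91 ± 0.08 in Zmpste24-/- lungs against 7.09 ± 0.20 in wild type lungs (SD, n = 3 each). It was higher on all 6 Zmpste24-/- arrays than on any wild type array, by 0.56 ± 0.12 under ventilation (limma adjusted p = 0.0096) and 0.82 ± 0.12 at baseline (0.00221). Tmprss2, a serine protease of the cell surface, was higher by 0.67 ± 0.11 under ventilation (0.00191) and by 0.43 ± 0.11 at baseline (0.0314). The Tsc22d3 calls and the Tmprss2 call under ventilation held with each array left out. Under ventilation Sgk1 (0.41, 0.0219) and Wnk4 (0.38, 0.0342) made up the 4, and at baseline Usp2 (0.69, 0.0346) and Spint1, a protease inhibitor (0.43, 0.0226). These 4 calls were each lost 4 times in 12, at adjusted p of up to 0.0914, 0.138, 0.129 and 0.0863, and the baseline Tmprss2 call 5 times (up to 0.113). The number of regulators that rose at baseline was as low as 1, without wild type baseline array 1 or array 2. Without array 2 the adjusted p was 0.129 for Usp2, 0.087 for Tmprss2 and 0.0838 for Spint1. With the baseline groups fitted alone these 3 were also lost (0.0679, 0.0752 and 0.0571), which left Tsc22d3. The Sgk1 call under ventilation was lost without wild type ventilated array 1 (0.0662).

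**Figure D5:**
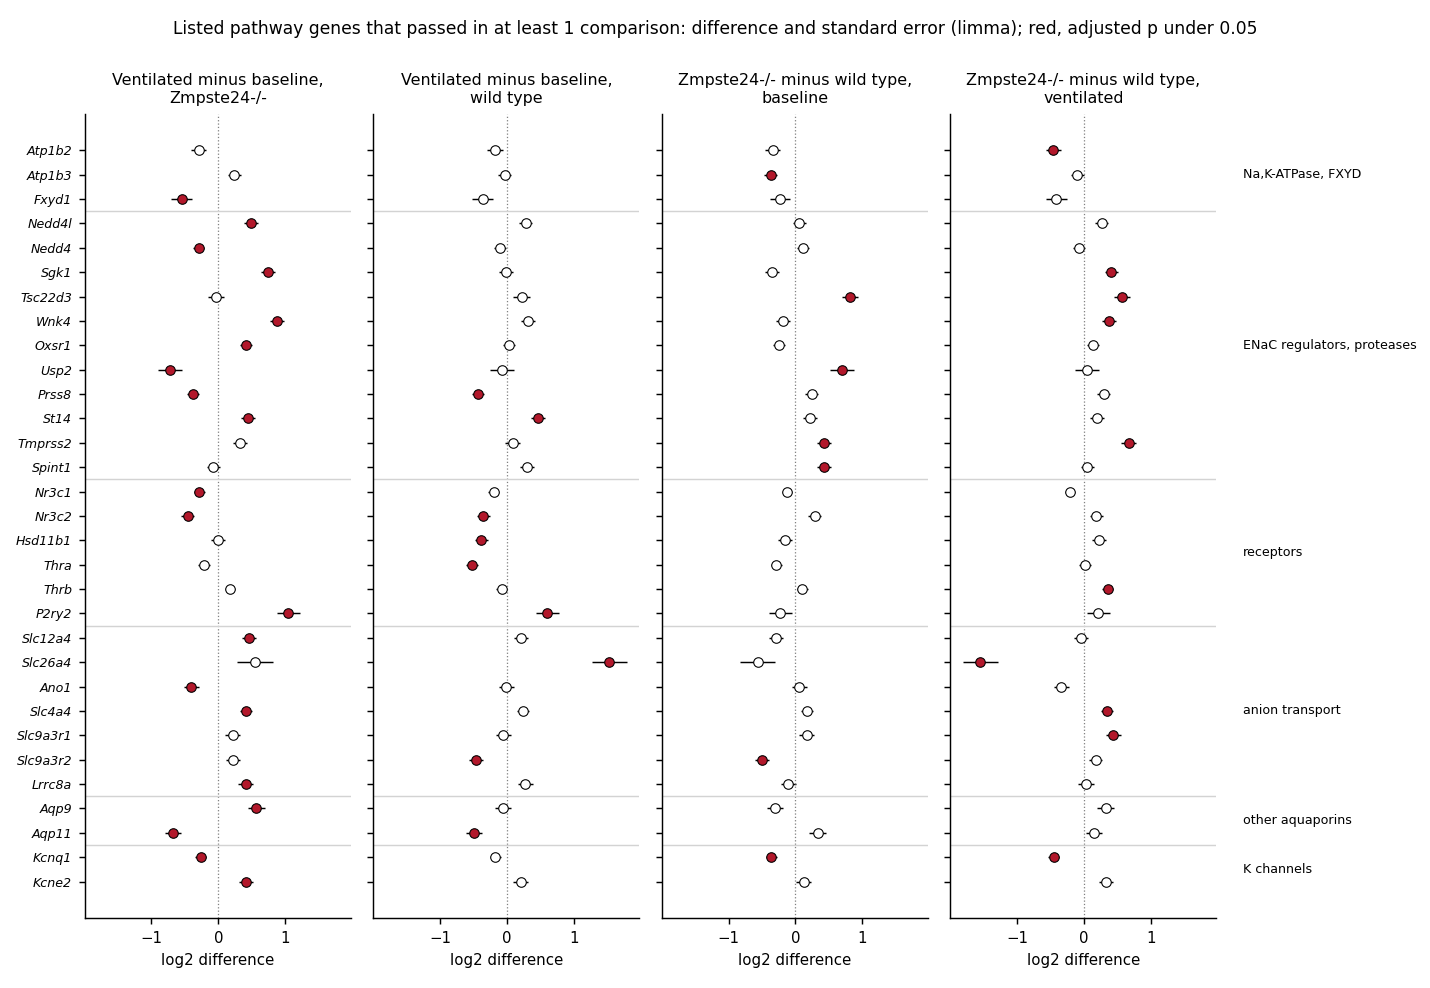
Log2 differences with standard errors (horizontal axes) of the 31 listed pathway genes that passed in at least 1 comparison, in 4 panels, by list; red points passed an adjusted p under 0.05. Slc26a4 has the largest values, 1.53 with ventilation in wild type lungs and -1.55 in Zmpste24-/- minus wild type under ventilation, both against groups that read below the array medians.

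Receptors through which hormones and nucleotides act on fluid transport gave 1 rise and 2 falls among 9 measured genes with ventilation in Zmpste24-/- lungs, and 1 rise and 3 falls in wild type lungs. The shares of all genes that rose and fell were 8.89% and 7.52% in Zmpste24-/- and 3.67% and 3.53% in wild type lungs. P2ry2, the ATP and UTP receptor that evokes chloride secretion, read 7.52, 8.35 and 8.08 in ventilated against 6.85, 6.90 and 7.07 in baseline Zmpste24-/- lungs, and 7.92, 7.62 and 7.77 in ventilated against 7.28, 6.93 and 7.29 in baseline wild type lungs. Ventilated arrays lay above baseline arrays in both genotypes, by 1.04 ± 0.17 (limma adjusted p = 0.000945) and 0.60 ± 0.17 (0.0494), and the second call was lost with 10 of 12 arrays left out (up to 0.173, without wild type baseline array 2, and 0.142 without wild type ventilated array 1). It was lost too with array medians subtracted (0.0535) and with the replicate number as a block (0.0651). Nr3c2, the mineralocorticoid receptor, fell by 0.46 in Zmpste24-/- lungs (0.00596) and by 0.35 in wild type lungs (0.048), and the wild type call was lost with 11 of 12 arrays left out (up to 0.188, and 0.114 without baseline array 2), with the compared groups alone (0.14), with a trended robust prior (0.058) and with the block (0.0629). With the mean of all its probes both Nr3c2 calls were lost (0.137 in Zmpste24-/- and 0.15 in wild type lungs). Nr3c1, the glucocorticoid receptor, fell by 0.28 in Zmpste24-/- lungs (0.0221; lost 3 times, up to 0.107). Wild type lungs averaged 9.37 for Nr3c1 with ventilation against 9.56 at baseline, without overlap of arrays, and this difference did not pass. In wild type lungs Thra, a thyroid hormone receptor, fell by 0.52 (0.00329) and Hsd11b1, which regenerates glucocorticoid, by 0.38 (0.0388; lost 6 times, up to 0.122). Zmpste24-/- lungs averaged 7.07 for Thra with ventilation against 7.29 at baseline, without overlap of arrays, and this difference did not pass. Among the arrays that end the Hsd11b1 call are baseline array 2 (0.0944) and ventilated array 1 (0.0936) of the wild type mice, and it was also lost with the compared groups alone (0.0581). Between genotypes 0 of 9 passed at baseline in limma (1 higher and 1 lower at an unadjusted p under 0.05), and under ventilation Thrb, the other thyroid hormone receptor, rose by 0.36 (0.0115), a call lost without wild type ventilated array 3 (0.0551). Under ventilation 4.72% of all genes rose by genotype.

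Of 14 other chloride, bicarbonate and cation-chloride transporters, 3 rose and 1 fell with ventilation in Zmpste24-/- lungs, against 8.89% and 7.52% of all genes. In wild type lungs 1 rose and 1 fell, against 3.67% and 3.53%. Slc26a4 (pendrin, an exchanger of chloride for bicarbonate and iodide) read 4.60, 4.66 and 5.36 in ventilated Zmpste24-/- lungs against 6.59, 5.72 and 6.96 in ventilated wild type lungs. At baseline it read 4.25, 4.38 and 4.35 in Zmpste24-/- lungs against 4.63, 4.84 and 5.20 in wild type lungs. All 3 ventilated wild type arrays lay above the other 9, each of which read below the median of its own array. The deposited values carry no background measure, so the size of a difference from such dim readings is uncertain and no fold is given. With ventilation it rose by 1.53 ± 0.27 on the log2 scale in wild type lungs (limma adjusted p = 0.0036), and the difference in Zmpste24-/- lungs was 0.55 ± 0.27 (0.205). Under ventilation Zmpste24-/- minus wild type was -1.55 ± 0.27 (0.00259), and the interaction was -0.99 ± 0.38 (0.307). The sign of the genotype difference under ventilation was the opposite of that of Cftr.

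Slc4a4, the sodium-bicarbonate cotransporter that supplies bicarbonate for secretion, rose by 0.42 with ventilation in Zmpste24-/- lungs (limma adjusted p = 0.00534) and was higher there than in ventilated wild type lungs by 0.34 (0.0253; lost 5 times in 12, up to 0.0945, and at 0.0776 without wild type ventilated array 1). Slc12a4, a potassium-chloride cotransporter, rose by 0.45 with ventilation in Zmpste24-/- lungs (0.00871), as did Lrrc8a, a subunit of volume-regulated anion channels, by 0.41 (0.0238; lost 3 times, up to 0.11, and after quantile normalization, 0.0934), while Ano1, a calcium-activated chloride channel, fell by 0.40 (0.0212; lost 4 times, up to 0.0807). Without wild type ventilated array 1 Ano1 was also lower in Zmpste24-/- than in wild type lungs under ventilation, at a difference of -0.44 (0.0235), which did not pass with all arrays. Slc9a3r1 (NHERF1), the scaffold that holds Cftr at the membrane, was higher in Zmpste24-/- than in wild type lungs under ventilation by 0.44 (0.0241; lost 5 times, up to 0.101, and after quantile normalization, 0.0621). Its relative Slc9a3r2 fell by 0.46 with ventilation in wild type lungs (0.0149; lost without baseline array 3, 0.0574) and by 0.50 in Zmpste24-/- against wild type lungs at baseline (0.0106). In Zmpste24-/- lungs Slc9a3r2 averaged 10.27 with ventilation against 10.05 at baseline, the other direction, without overlap and without passing. Wild type means with ventilation and at baseline were 8.25 and 8.01 for Slc4a4 and 8.82 and 8.62 for Slc12a4, without overlap. They were 9.11 and 8.83 for Lrrc8a and 9.28 and 9.29 for Ano1, with overlap. None of these wild type differences passed.

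Of 9 other aquaporins, Aqp9, which also carries glycerol, rose by 0.57 ± 0.12 with ventilation in Zmpste24-/- lungs (limma adjusted p = 0.00597), and Aqp11, which resides in the endoplasmic reticulum, fell in both genotypes. With ventilation 8.89% of all genes rose and 7.52% fell in Zmpste24-/- lungs, and 3.53% fell in wild type lungs. Aqp9 read 5.64, 5.90 and 5.86 in ventilated against 5.16, 5.47 and 5.07 in baseline Zmpste24-/- lungs, and baseline arrays 1 and 3 lay below their array medians. Neutrophil markers moved with it: 6 of 9 rose and 0 fell in the same comparison, with a median of 1.21, and their part in the Aqp9 result was not tested. Aqp11 read 5.76, 5.90 and 5.54 in ventilated against 6.42, 6.26 and 6.54 in baseline Zmpste24-/- lungs, and 5.45, 5.61 and 5.71 in ventilated against 6.30, 5.97 and 5.96 in baseline wild type lungs. The groups were apart in both genotypes, with differences of -0.67 ± 0.12 (0.00188) and -0.49 ± 0.12 (0.0284), the second lost without wild type baseline array 1 (0.1) and without ventilated array 1 (0.0965) or 2 (0.0602), and with the compared groups alone (0.0581). Between genotypes 0 of 9 passed in limma in either condition, with 2 higher at an unadjusted p under 0.05 in each and 1 lower at baseline.

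Of 6 potassium and cation channels, Kcnq1, whose current helps to drive sodium uptake and chloride secretion, was lower in Zmpste24-/- lungs. It was the only 1 of the 6 to pass by genotype. Of all genes 4.11% were lower at baseline and 6.08% under ventilation. Kcnq1 was 1 of 2 in the list to pass with ventilation in Zmpste24-/- lungs, where 8.89% of all genes rose and 7.52% fell. It read 6.78, 6.91 and 6.83 in ventilated Zmpste24-/- lungs against 7.34, 7.26 and 7.28 in ventilated wild type lungs, and 7.21, 7.01 and 7.08 in baseline Zmpste24-/- lungs against 7.39, 7.46 and 7.55 in baseline wild type lungs. The groups did not overlap in either condition, and the differences were -0.45 ± 0.08 (limma adjusted p = 0.00325), held with each array left out, and -0.36 ± 0.08 (0.0171; lost 3 times, up to 0.0662, and with the compared groups alone, 0.0653). Kcnq1 also fell by 0.26 with ventilation in Zmpste24-/- lungs (0.0405; lost 7 times, up to 0.153), where its accessory subunit Kcne2 rose by 0.41 (0.0175; lost 3 times, up to 0.0669). That fall of Kcnq1 was also lost with array medians subtracted (0.0631), after quantile normalization (0.052), with the compared groups alone (0.0641), with a trended robust prior (0.0627) and with the block (0.067).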

How the data were processed

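The authors deposited normalized log2 expression values for 41345 probes on 12 one-colour arrays, made from 100 ng of total RNA each. Per the submitters' processing notes the tools were RMA and limma. The sources used here give no versions, probe build, scan dates or slides, and array batches were therefore not examined. The log2 scale was read from the range of the values, which were not normalized again. Groups and replicate numbers came from the labels, which call the replicates biological. Platform annotation paired 23521 probes with 1 symbol, and the one with the highest mean stood for each of 22180 genes. In R 4.3.3, limma 3.58.1 (lmFit, eBayes) fitted a mean for each of the 4 groups over all 12 arrays, with 5 contrasts and Benjamini-Hochberg adjustment over all genes, and was tested on simulated data. With 3 arrays a group the number of arrays limits the precision. The genes planned to be named were the 9 members and the 3 genes most correlated with each member. To these the plan added up to 6 passing genes per pathway list with the smallest adjusted p. All 31 passing pathway genes were named in the end, those beyond 6 per list after their values were seen. Of 115 listed cell type genes 106 were measured, in 14 lists. The members and lists were chosen with earlier results of these data known. The alternatives were an expression filter, other scalings, the compared groups alone, another variance prior, a replicate block, all probes averaged and 1 array left out.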

Additional observations from a re-analysis of the deposited data

Results flagged for a closer look

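Sgk1, the kinase that keeps ENaC at the cell surface, responded to ventilation differently in the 2 genotypes by the test of that difference. The interaction was 0.764 on the log2 scale (limma adjusted p = 0.0478). Baseline lungs averaged 7.96 in Zmpste24-/- and 8.31 in wild type mice, without overlap of arrays, a difference that did not pass. Ventilated minus baseline was 0.75 ± 0.10 in Zmpste24-/- lungs and -0.01 ± 0.10 in wild type lungs, and Sgk1 read higher on 3 of 3 ventilated than on any baseline Zmpste24-/- array. The call was lost with 11 of the 12 arrays left out in turn, with interactions of 0.691 to 0.847 and adjusted p of 0.0365 to 0.132 (0.132 without wild type baseline array 2 and 0.0779 without wild type ventilated array 1), and remained without wild type baseline array 1. It was also lost after quantile normalization (interaction 0.699, adjusted p = 0.0738) and with the mean of all 1-symbol probes (adjusted p = 0.0501). Groups of 3 arrays were not tested for single arrays that stand apart.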

How the results depend on the processing

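Of 846 recomputed differences of the 9 genes, 796 kept their direction and their side of the threshold, 19 lost and 11 gained a call, and 20 changed sign, all of these in differences near 0 that had not passed. Aqp5 with ventilation in Zmpste24-/- lungs was -0.0144 after quantile normalization and -0.0428 to 0.123 with 1 array left out, Cftr by genotype at baseline was 0.00823 and -0.135 to 0.0972, and the Scnn1a interaction was 0.00691 with array medians subtracted and -0.139 to 0.0594 with 1 array left out. With 1 array left out, Scnn1b with ventilation in Zmpste24-/- lungs ran between -0.0826 and 0.00977, Aqp5 with ventilation in wild type lungs between -0.0938 and 0.102, Aqp4 by genotype under ventilation between -0.108 and 0.0795, and the Aqp5 interaction between -0.0796 and 0.146. The number of the 9 genes that passed then ran between 1 and 3 for ventilation in Zmpste24-/- lungs, 1 and 2 in wild type lungs, and 3 and 6 by genotype under ventilation. Over all genes, those that passed numbered 799 to 1598 for ventilation in wild type lungs against 1597 with all arrays (923 with the compared groups alone), 646 to 1483 by genotype at baseline against 1399, 1369 to 2510 by genotype under ventilation against 2395, and 8 to 118 for the interaction against 70. The interaction count was 152 with low genes left out, 26 after quantile normalization, 112 with the trended robust prior and 43 with the replicate block. Same-numbered arrays did not pair, since their 18 correlations of deviations ran between -0.152 and 0.153 and 2 exceeded 0.1. With the block Scnn1g passed at baseline (adjusted p = 0.0442). The causes were not tested. Dim genes such as Cftr and Aqp4, nearer the array medians, had larger standard errors than Scnn1b or Atp1b1, which limits what 3 arrays can show for them.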
